A study of Drosophila melanogaster with 3 samples.

Results

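The regions described here are 610 combined ChIP-seq peaks of the fly protein CG10274, or 20.4% of all its combined peaks, set apart from 2378 others. They were chosen by presence and absence in the peak lists of single replicates: a combined peak was taken when at least 1 base of it was covered in the full lists of replicates 1 and 2 and none of it was covered in the full list of replicate 3. The 2292 combined peaks present in all 3 lists are used beside them. Because presence in the lists and the scores in them made the choice, both are given as a description and support nothing. The remaining 86 combined peaks had another pattern, with 51 absent from replicate 1 only and 7 absent from replicate 2 only.

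ChIP-seq was performed on Drosophila melanogaster embryos of 0 to 24 h, males and females pooled, from 1 transgenic line with a stable C-terminal GFP fusion of CG10274, using an antibody against GFP on sonicated chromatin of 200 to 800 bp. The 3 samples are biological replicates 1, 2 and 3 of this 1 group, and the control that the labels point to was not analysed here. All 3 replicates carried the tagged protein, and what drives its expression is not given in the sources used here. Since whole embryos were used, binding in fewer cells and weaker binding per cell cannot be told apart. With 1 group of 3 replicates, no test between conditions is possible, and none was made over peaks, which are not replicates.

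In ChIP-seq, DNA that was bound by a protein is enriched and appears as a peak of sequenced fragments, with the summit as its highest position. The irreproducible discovery rate (IDR) keeps peaks whose rank agrees between replicates, so a peak missing from 1 replicate can still pass through the others or through the pooled fragments. CG10274 is a zinc-finger protein, and zinc fingers of its class bind DNA in many transcription factors. A promoter is the stretch around a transcription start site where RNA polymerase is loaded, and divergent gene pairs share such a stretch between 2 starts on opposite strands.

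The member at the CG10274 gene itself (FBgn0035690, chr3L:6178677-6181829, minus strand) and 4 of the members with the highest combined scores are shown as sequence, because they hold the gene of the bound protein and strong peaks that replicate 3 lacked. They are a selection, and other members not shown scored higher than CG3552. Each run is 101 bases centred on the summit, read from the release 6 reference genome (dm6) on the strand of the nearest protein-coding start. Capitals mark AAAATA and TATAAA, along with TATCGATA, on either strand, where neighbouring matches can run into each other.
CG10274: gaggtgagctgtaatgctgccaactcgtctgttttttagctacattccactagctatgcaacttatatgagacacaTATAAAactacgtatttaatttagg
Synd: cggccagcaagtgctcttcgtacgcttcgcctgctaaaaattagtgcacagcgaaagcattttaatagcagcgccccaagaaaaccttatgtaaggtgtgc
CenG1A: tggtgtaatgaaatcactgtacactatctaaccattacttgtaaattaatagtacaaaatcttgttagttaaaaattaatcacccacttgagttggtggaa
Gapdh2: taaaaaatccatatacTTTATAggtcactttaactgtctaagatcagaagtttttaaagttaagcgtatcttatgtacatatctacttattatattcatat
CG3552: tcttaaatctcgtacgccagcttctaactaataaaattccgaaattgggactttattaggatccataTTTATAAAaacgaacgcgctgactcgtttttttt
These windows are chr3L:6182014-6182114 on the minus strand for CG10274 and, all on the plus strand, chr3R:20833116-20833216 for Synd, chr2L:13835424-13835524 for CenG1A, chrX:15867935-15868035 for Gapdh2 and chr3L:9457760-9457860 for CG3552. TATAAA stood at the CG10274, Gapdh2 and CG3552 summits, and neither TATAAA nor AAAATA at Synd or CenG1A.

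Cytosolic ribosomal protein genes, which encode the proteins of the ribosome, made up 26 of the members, and 5 of the 6 with the highest combined scores are shown in the same way, with CTTTTC, a core of the pyrimidine-rich start of such genes, also in capitals.
RpS25: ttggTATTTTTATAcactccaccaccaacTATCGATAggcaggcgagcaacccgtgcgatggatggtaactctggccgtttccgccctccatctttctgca
RpL28: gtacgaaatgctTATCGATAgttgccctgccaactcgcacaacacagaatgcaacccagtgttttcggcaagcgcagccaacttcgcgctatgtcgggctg
RpS4: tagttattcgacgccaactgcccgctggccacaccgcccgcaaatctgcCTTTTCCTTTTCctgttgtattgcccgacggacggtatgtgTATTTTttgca
RpS5a: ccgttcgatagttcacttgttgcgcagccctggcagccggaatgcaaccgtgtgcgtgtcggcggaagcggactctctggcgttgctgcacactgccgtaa
RpL13: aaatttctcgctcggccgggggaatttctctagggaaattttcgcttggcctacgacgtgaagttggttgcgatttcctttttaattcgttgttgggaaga
Their windows are chr3R:11216275-11216375 (minus strand), chr3L:3222964-3223064 (minus), chr3L:13041755-13041855 (plus), chrX:17148267-17148367 (minus) and chr2L:9967254-9967354 (plus). RpS25 and RpL28 each held TATCGATA, the element bound by the replication-related factor Dref. RpS4 held CTTTTC in tandem and AAAATA, and RpS5a and RpL13 held none of these motifs.

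Further members with TATCGATA at the summit were at RpL36 (chrX:629408-629508, minus strand), Nsun5 (chr3R:19162292-19162392, minus) and CG14805 (chrX:1877248-1877348, plus). They are shown because among the motifs searched this element had the largest ratio of member summits to flanks.
RpL36: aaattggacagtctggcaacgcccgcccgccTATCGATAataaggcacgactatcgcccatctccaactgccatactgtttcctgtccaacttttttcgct
Nsun5: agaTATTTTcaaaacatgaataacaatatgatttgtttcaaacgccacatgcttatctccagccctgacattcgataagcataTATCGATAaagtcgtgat
CG14805: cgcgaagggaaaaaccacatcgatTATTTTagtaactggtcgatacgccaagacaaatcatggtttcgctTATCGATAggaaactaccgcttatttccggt
Nsun5 and CG14805 held AAAATA as well, and RpL36 did not.

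Promoters held most of the members. A summit lay within 500 bp of an annotated start site, the definition of a promoter used here, at 360 of 610 members (59.0%, 95% Wilson interval 55.1 to 62.9), against 1018 of 2292 peaks in all 3 lists (44.4%, 42.4 to 46.5). Introns held 200 members (32.8%) against 903 peaks in all 3 lists (39.4%), and intergenic DNA held 29 members (4.75%, 3.33 to 6.74) against 310 peaks in all 3 lists (13.5%, 12.2 to 15.0). Members were also rarer far from start sites, inside genes or not: 97 (15.9%) had none within 2000 bp, against 694 peaks in all 3 lists (30.3%). All intervals cover the counting of peaks only.

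Read by place, 25.5% of the combined peaks at promoters were absent from replicate 3 in this way (23.3 to 27.8), as were 17.7% of those in introns (15.6 to 20.1) and 7.99% of those between genes (5.62 to 11.2), beside 20.4% of all combined peaks. Of the 51 combined peaks absent from replicate 1 only, 17 were at promoters (33.3%, 22.0 to 47.0). Promoters were also scarcer in replicate 3's own list as a whole. They took 35.4% of its highest-scoring entries, counting as many as there are combined peaks, against 50.5% in replicate 1 and 45.2% in replicate 2. Of all 30000 entries they took 13.9%, against 33.8% in replicate 1 and 21.1% in replicate 2. The part of this difference between lists in the position of the members was not tested.

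**Figure D1:**
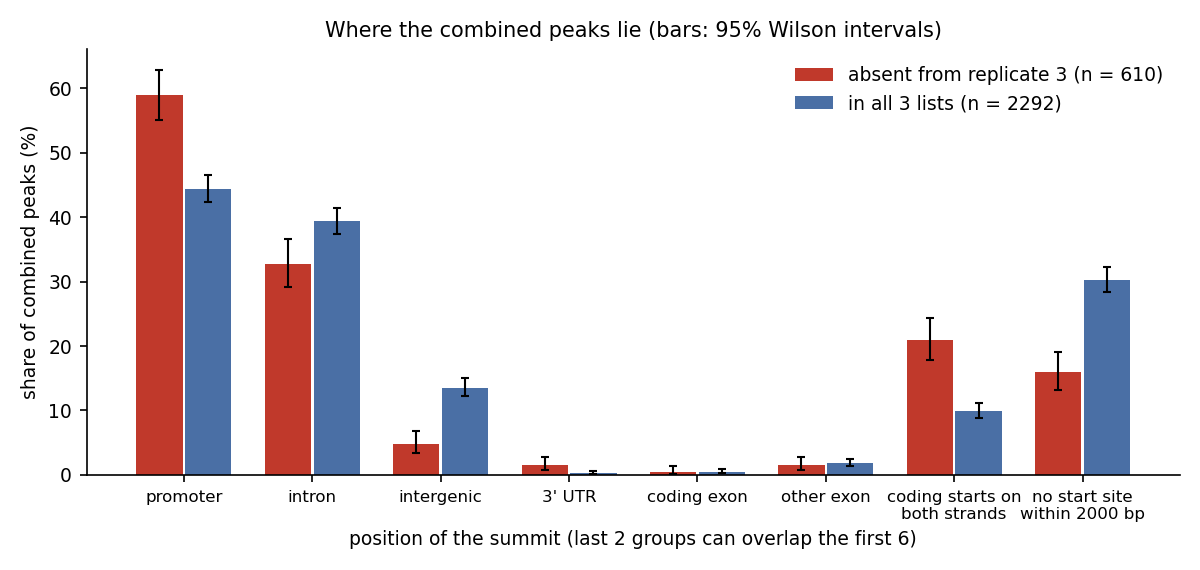
Share of combined peaks (y axis, %) by the position of the summit (x axis) for the 610 members (red) and the 2292 peaks in all 3 lists (blue); error bars are 95% Wilson intervals over peaks. The members stand higher at promoters (59.0% against 44.4%) and at coding starts on both strands, and lower between genes and far from start sites.

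Many members lay near coding starts on both strands. Protein-coding starts on both strands lay within 500 bp of 128 members (17.9 to 24.4%), against 228 peaks in all 3 lists (9.95%, 8.79 to 11.2). Among peaks at protein-coding starts alone, the shares were 37.4% of 342 members (32.5 to 42.7) and 24.3% of 939 peaks in all 3 lists (21.6 to 27.1). One such member lay at the starts of CenG1A, an Arf GTPase-activating protein gene, and mRpS23, a mitochondrial ribosomal protein gene. Others lay at RpL28 and eIF1, a translation initiation factor gene, at RpL13 and Dref, and at Hsc70-5, a mitochondrial chaperone gene, and CG8531.

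Summits of members lay nearer to the start. At protein-coding starts the median summit was at -67 bp in the members (95% interval of the median -87 to -51, n = 342), negative meaning upstream, against -146 bp in peaks in all 3 lists (-164 to -133, n = 939). The summit was within 100 bp of the start at 161 members (47.1%, 41.8 to 52.4) and at 259 peaks in all 3 lists (27.6%, 24.8 to 30.5). It was downstream of the start at 98 members (28.7%, 24.1 to 33.7) and at 154 peaks in all 3 lists (16.4%, 14.2 to 18.9). Ribosomal protein genes have summits close to the start, and without them the medians were -79 bp in the members (n = 316) and -158 bp in peaks in all 3 lists (n = 901).

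**Figure D2:**
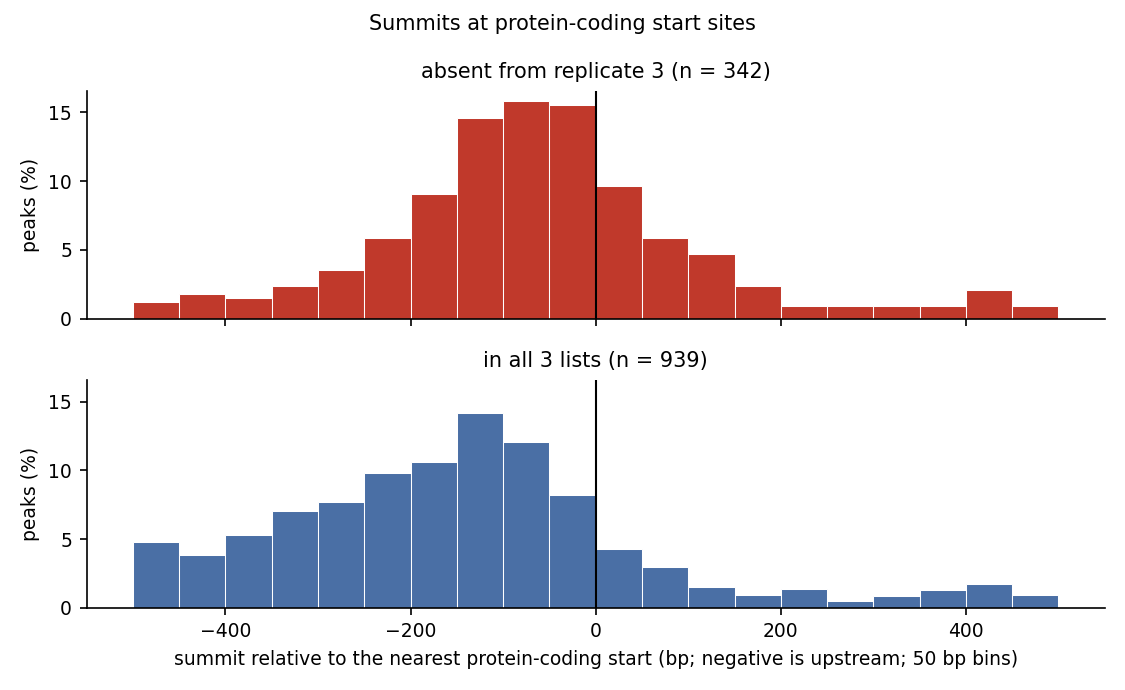
Distance of the summit from the nearest protein-coding start (x axis, bp, negative is upstream, bins of 50 bp) as a share of the peaks within 500 bp of such a start (y axis, %) for members (above, n = 342) and peaks in all 3 lists (below, n = 939). The fullest bin of the members is -100 to -50 bp (15.8%), and that of peaks in all 3 lists is -150 to -100 bp (14.2%).

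The strongest members by combined score were mainly promoter peaks, and each of the 20 highest had at least 1.42 times the median score in both lists that held it. The authors' peak score has no unit and was not scaled between lists, so it is also given relative to each replicate's median over peaks in all 3 lists. The member at Synd (chr3R:20832995-20833414), which encodes a membrane-bending F-BAR protein, ranked 95 among the combined peaks with a combined score of 1359, and its summit lay 367 bp inside the gene. It scored 766 in replicate 1 (rank 98 of 30000, 6.81 times the median) and 325 in replicate 2 (rank 126, 4.33 times), and the nearest entry of replicate 3 was 2810 bp away.

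The member at CenG1A and mRpS23 (chr2L:13835315-13835621) scored 493 in replicate 1 and 442 in replicate 2, or 4.38 and 5.90 times the median, at ranks 167 and 76. Gapdh2 (chrX:15867821-15868150), a glycolytic dehydrogenase gene, scored 556 in replicate 1 and 193 in replicate 2, or 4.94 and 2.58 times the median. Its summit lay 160 bp upstream of the start. It was also the member farthest from any entry of replicate 3, at 81283 bp.

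Sox14 (chr2R:23978401-23978708), an HMG-box transcription factor gene, scored 355 in replicate 1 and 279 in replicate 2. Drat (chr2R:7529317-7529568), an alcohol dehydrogenase family gene, scored 399 in replicate 1 and 258 in replicate 2. Both were over 3 times the median in each list, at 3.16 and 3.73 for Sox14 and 3.55 and 3.45 for Drat. The member at CG3552 and CG3437 (chr3L:9457645-9457937) scored 312 in replicate 1 and 282 in replicate 2. The summits of these 3 members lay 102 to 246 bp upstream of the start.

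Among the 20 highest members, CG5381 (chr2L:10321559-10321871) was uneven between the lists, with 458 in replicate 1 and 107 in replicate 2, or 4.07 and 1.42 times the median. CG7841 (chr3L:15508244-15508510) scored 283 in replicate 1 and 178 in replicate 2. The gene yps (chr3L:12125049-12125306), which encodes a Y-box RNA-binding protein, scored 272 in replicate 1 and 199 in replicate 2, with its summit 27 bp upstream of the start. Hmt4-20 (chrX:655022-655274), the histone H4 lysine 20 methyltransferase gene, scored 259 in replicate 1 and 216 in replicate 2, and the transketolase gene CG8036 (chr3R:8669242-8669514) 233 and 160. CG8036 shares its peak with a tRNA gene, tRNA:Tyr-GTA-1-8. The 20 highest also held 3 peaks at starts of non-coding RNA genes, lncRNA:CR44339, asRNA:CR45999 and lncRNA:CR46036, and 1 inside simj, a NuRD subunit gene, 1103 bp from its start.

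Of the 5 highest members with no start site within 2000 bp, only the first was among the 10 highest members. It (chr2R:13035180-13035476) was intergenic, 11917 bp from its nearest start, and scored 376 in replicate 1 and 296 in replicate 2. The next (chr2L:11816449-11816718) lay in a coding exon of the phosphodiesterase gene Pde1c, with 261 in replicate 1 and 241 in replicate 2. The others lay in introns of the corepressor gene Smr (chrX:12735648-12735890), with 269 and 191, and of Mi-2 or Su(Tpl) (chr3L:19903163-19903411), with 201 and 182 in replicates 1 and 2, and between genes near CG13321 (chr2R:12958075-12958348), with 142 and 187.

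The member at CG10274 (chr3L:6181862-6182265) had its summit 235 bp upstream of the start and ranked 1338 in the combined list. It scored 88.1 in replicate 1 and 98.3 in replicate 2, at ranks 2016 and 842, and the nearest entry of replicate 3 was 20693 bp away. A further member within 5000 bp of the gene lay at the starts of CG43293 and D19B (chr3L:6185038-6185244) and scored 220 in replicate 1 and 118 in replicate 2. Both CG10274 values were near the median of peaks in all 3 lists (0.783 and 1.31 times), and those of the neighbour above it (1.95 and 1.57 times).

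As a set, members had lower combined scores than peaks in all 3 lists, over a wide range. The combined list draws on all 3 replicates pooled, so lack of signal in replicate 3 can itself lower the combined score. The median combined score was 178 in members (quartiles 145 and 241) and 231 in peaks in all 3 lists (167 and 377), and member ranks ran over nearly the whole list, 95 to 2985. Members took 13 of 299 peaks in the highest of 10 equal bins by score (4.35%, 2.56 to 7.30) and 97 of 298 in the lowest bin (32.6%, 27.5 to 38.1). Relative to peaks in all 3 lists, the median member score was 0.833 in replicate 1 (0.297 to 6.81) and 0.703 in replicate 2 (0.193 to 5.90).

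The promoter share was higher in members than in peaks in all 3 lists in 10 of 10 bins by score. These bins do not match both sets for strength in the replicates that held the members, because the combined score draws on replicate 3 as well. In the highest bin it was 76.9% of 13 members (49.7 to 91.8) against 58.7% of 286 peaks in all 3 lists (53.0 to 64.3). In the lowest bin it was 53.6% of 97 members (43.7 to 63.2) against 30.3% of 175 peaks in all 3 lists (24.0 to 37.5). The intervals of both sets overlapped in bins 1 to 6, counted from the highest score, and did not in bins 7 to 10.

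**Figure D3:**
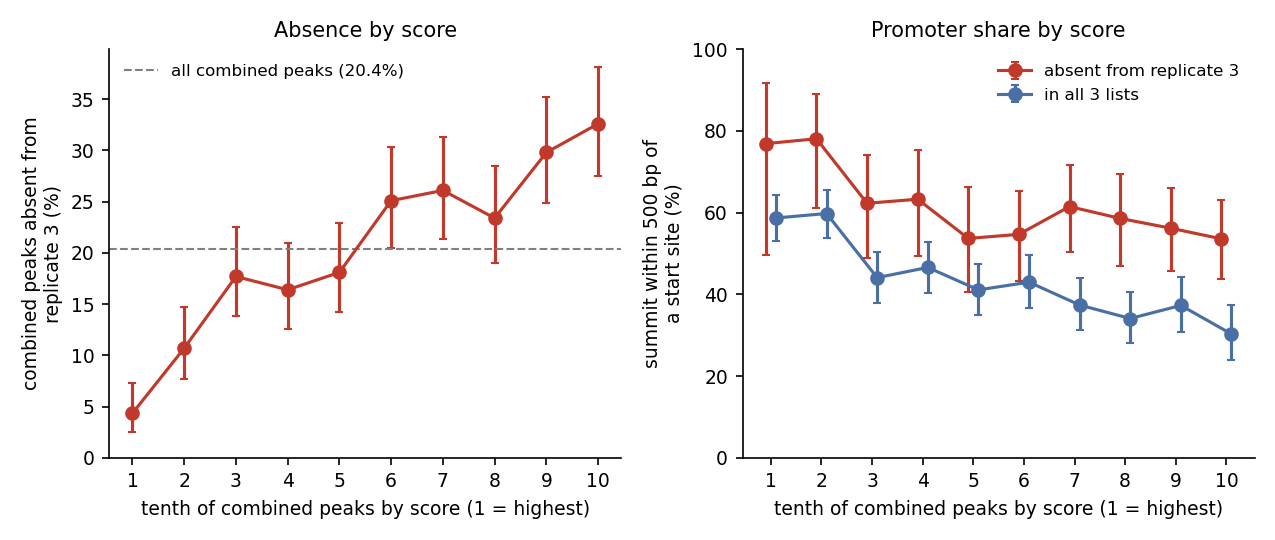
Left: share of combined peaks that are members (y axis, %) in 10 equal bins of the combined peaks by score (x axis, 1 is the highest), with the 20.4% over all combined peaks dashed. Right: share of summits within 500 bp of a start site (y axis, %) by bin for members (red) and peaks in all 3 lists (blue). Error bars are 95% Wilson intervals. Absence grows toward the low scores, and the combined score draws on all replicates pooled. The red points lie above the blue in all 10 bins, and the intervals overlap in bins 1 to 6 but not in bins 7 to 10.

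Strong peaks absent from replicate 3 were few. Of 1012 combined peaks at or above the median in both replicate 1 and replicate 2, 110 were members (10.9%, 9.10 to 12.9). Of 359 at 2 or more times the median in both, 19 were members (5.29%, 3.41 to 8.12), and of 89 at 5 or more times none was, where a count of 0 allows up to 3.37%. At 4 to 8 times the median by the lower of the replicate 1 and 2 values, 3 of 78 were members, namely CenG1A and 2 summits at Synd in the same replicate entries. The peaks in all 3 lists at that level had relative scores in replicate 3 with a median of 6.34 and none under 3.23. Most members lay lower: at 0.5 to 1 times the median 304 of 1302 were members, and below 0.5 times 196 of 588. In both of these bins the peaks in all 3 lists went down to 0.259 in replicate 3. Those peaks were themselves chosen by presence in replicate 3.

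On this scale the lowest entry of replicate 3 stood higher than those of the other lists. It was at 0.259 times its median, against 0.155 in replicate 1 and 0.186 in replicate 2. Every list holds 30000 entries, so its lowest score belongs to the last rank and does not mark where signal ends. Unscaled, replicate 3 went down to 14.6, which is below the 17.5 of replicate 1 and above the 13.9 of replicate 2. Its median was the smallest, at 56.3 beside 113 for replicate 1 and 74.9 for replicate 2. Of the members, 595 (97.5%) had at least 0.259 times the median in both replicate 1 and replicate 2, and 15 had less in at least one of them. Scores were not scaled between lists, so this does not tell what members would have scored in replicate 3. The same share is not given for other peaks. The 3 lists were alike in extent, with 11.3 Mb covered in replicate 3 against 12.5 Mb in replicate 1 and 11.5 Mb in replicate 2. This follows largely from their equal number of entries and similar median widths (390 bp in replicate 3, 470 bp in replicate 1 and 400 bp in replicate 2). It is no measure of signal. Peak lists give no read totals, so sequencing depth is unknown for every replicate, and its part in the absences was not tested.

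Across the 610 members, Spearman's rho between the relative scores in replicates 1 and 2 was 0.327, against 0.701 across the 2292 peaks in all 3 lists. These are descriptions over peaks that share their libraries, and the members cover a narrower range of scores. Among the highest-scoring entries of both replicates, counting as many as there are combined peaks, were 335 members (54.9%, 51.0 to 58.8), against 1656 peaks in all 3 lists (72.3%, 70.4 to 74.0).

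**Figure D4:**
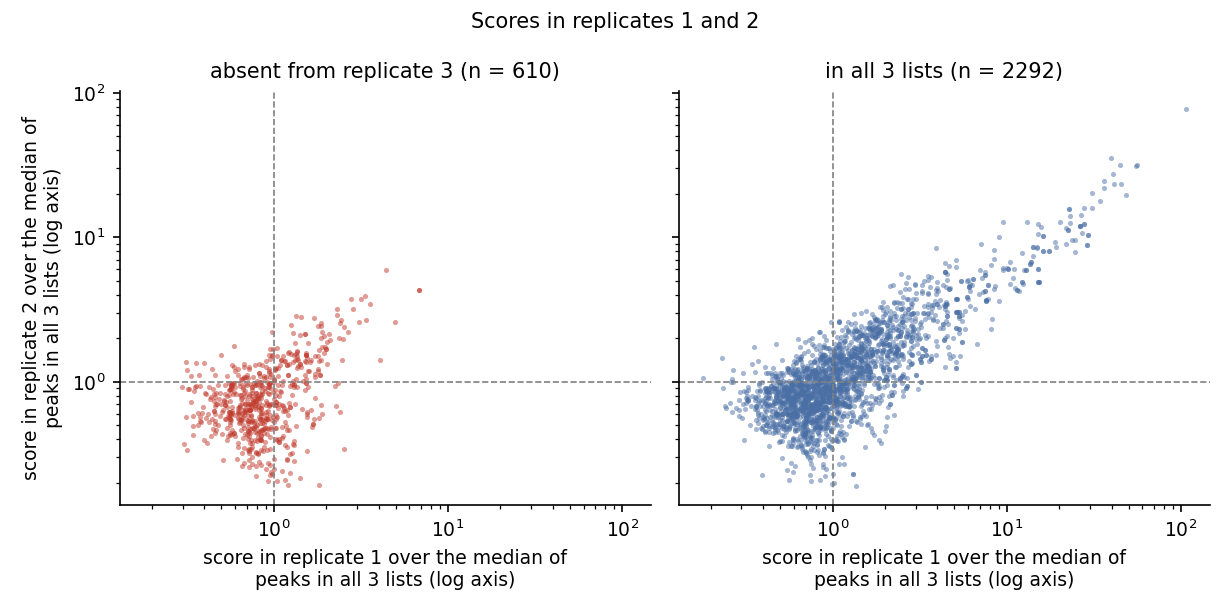
Score in replicate 1 (x axis) against score in replicate 2 (y axis), each divided by the replicate's median over peaks in all 3 lists, on log axes, with 1 point per combined peak for members (left, n = 610) and peaks in all 3 lists (right, n = 2292). Members reach 6.81 in replicate 1 and 5.90 in replicate 2, and peaks in all 3 lists reach 106 and 76.9; dashed lines mark 1.

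Members lay at a wide range of distances from the entries of replicate 3. The rule left out every peak that touched an entry, and distances of other places were not computed for comparison. The distance of members to the nearest entry had a median of 6235 bp (quartiles 2496 and 12889), and 210 members lay over 10000 bp away. Only 9 members lay within 200 bp of an entry and 86 within 1000 bp. The nearest were in an intron of schlank, a ceramide synthase gene, at 23 bp, in an intron of Egfr, the epidermal growth factor receptor gene, at 32 bp, and at Drat at 45 bp, next to an entry that ranked 178 in replicate 3. On the other side of the rule, the combined peaks with the smallest overlap with replicate 3 were at wun (7 bp), CG17145 (19 bp) and CAP (55 bp). The 3 lowest members by score, at RpL3, Zaf1 and Uba1, a ubiquitin-activating enzyme gene, each had a combined score of 128.

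Cytosolic ribosomal protein genes had 65 combined peaks, of which 26 were members (29.0 to 52.1%), beside 20.4% of all combined peaks and 25.5% of those at promoters. They were 4.26% of members and 1.66% of peaks in all 3 lists. The 26 members lay at 25 genes, since RpS5a had 2 that fall in the same replicate intervals. RpS25 (chr3R:11216214-11216470) had the highest combined score of them, with 213 in replicate 1 and 167 in replicate 2 and its summit 38 bp upstream of the start. RpL28 (chr3L:3222885-3223154) scored 162 in replicate 1 and 212 in replicate 2, RpS4 (chr3L:13041655-13041924) 267 and 150, and RpS5a (chrX:17148217-17148442) 170 and 161.

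The rest ran down to RpL3 (chr3R:11221709-11222112), with 64.7 in replicate 1 and 34.5 in replicate 2. Summits sat at the start in both sets, with a median of -12.5 bp in the 26 members and -19.5 bp in the 38 ribosomal peaks in all 3 lists. They included large-subunit genes such as RpL11, RpL9, RpL35A and RpLP2 and small-subunit genes such as RpS20, RpS14a and sta. The list was built from gene symbols and holds RpLP0-like as well. Leaving these genes out, the promoter share was 57.2% of 584 members and 43.5% of 2254 peaks in all 3 lists.

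Other genes of protein synthesis were few. Of 8 combined peaks at translation initiation factor genes 4 were members (21.5 to 78.5%): the peak that eIF1 shares with RpL28, and those at eIF3a, eIF3c and eIF3h, which encode subunits of the eIF3 complex. The eIF3a peak (chr3R:4433738-4434141), nearest to the start of CG1074, scored 135 in replicate 1 and 34.9 in replicate 2. Of 10 at mitochondrial ribosomal protein genes 4 were members (16.8 to 68.7%), at mRpS23, mRpL20, mRpL34 and mRpL53. None of 6 at aminoacyl-tRNA synthetase genes was a member, a count of 0 that allows up to 3 of them. Of 8 at tRNA genes 5 were members (62.5%, 30.6 to 86.3), among them tRNA:Ile-AAT-1-8, tRNA:Trp-CCA-2-2 and tRNA:Val-CAC-2-5. A peak counts for each gene with a start within 500 bp, so it can lie nearer to another gene. The tRNA:Trp-CCA-2-2 peak had its summit 5 bp upstream of the protein-coding gene CG30122, and the tRNA:Val-CAC-2-5 peak was nearest to the start of Naam.

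The small lists gave wide intervals, to be read against the 25.5% of all promoter peaks that were members. ZAD zinc-finger genes, which share an N-terminal domain for pairing, had 3 members among 5 combined peaks (23.1 to 88.2%): CG10274 itself, Sry-delta (chr3R:30043101-30043504; 52.5 in replicate 1 and 52.2 in replicate 2) and Zaf1 (chr3R:11622947-11623350; 62.8 and 41.4). Genes of architectural proteins had 2 of 8, at Trl, which encodes GAGA factor (chr3L:14757095-14757278; 110 in replicate 1 and 167 in replicate 2), and at Dref. Polycomb and trithorax group genes had 2 of 10, Trl again and Su(z)12, a subunit of the H3K27 methyltransferase complex (chr3L:19923108-19923511; 35.1 and 103). Su(z)12 was uneven, at 0.312 times the median in replicate 1 and 1.38 times in replicate 2.

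Cell cycle and replication genes had 3 members among 11 combined peaks (27.3%, 9.75 to 56.6), near the 25.5% of all promoter peaks. These were CycE, which drives entry into S phase (chr2L:15746928-15747086, 173 in replicate 1 and 73.2 in replicate 2), RnrS, the small subunit of ribonucleotide reductase (116 and 60.9), and Dp, the partner of E2F (48.3 and 57.2). The Dp peak was nearest to the start of Fsn. The proneural and Notch list had 3 of 6: neur, an E3 ligase for Notch ligands (131 in replicate 1 and 39.2 in replicate 2), emc, an HLH inhibitor (71.4 and 41.3), and mam, a Notch coactivator (75.9 and 20.4). Respiratory chain genes had 3 of 6, at COX5A, COX7AL2 and ATPsynE, all under the median in both replicates, with the COX5A peak nearest to the start of glo. CycE was the only one of these 9 genes with more than 1.5 times the median in replicate 1, at 1.54.

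Heat shock genes had 3 members among 6 peaks, of which 2 lay at Hsc70-5 and CG8531 in the same replicate intervals, and 1 lay at Hsp26. Muscle genes had 2 of 5, at tin, the heart homeobox gene (120 in replicate 1 and 60.0 in replicate 2), and if, an integrin alpha gene (70.8 and 46.0). The germline list had 3 of 5, with 2 at papi, a Tudor protein gene, in the same replicate intervals. Among neuronal genes, 1 of 4 was a member, at Fas2, an adhesion protein gene, which scored 112 in replicate 1 but 18.5 in replicate 2. The proteasome list had 1 of 2, at Rpn3. Histone genes had 0 members of 2 combined peaks and segmentation genes 0 of 1, and the Hox, cuticle and chemoreceptor lists had no combined peak.

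**Figure D5:**
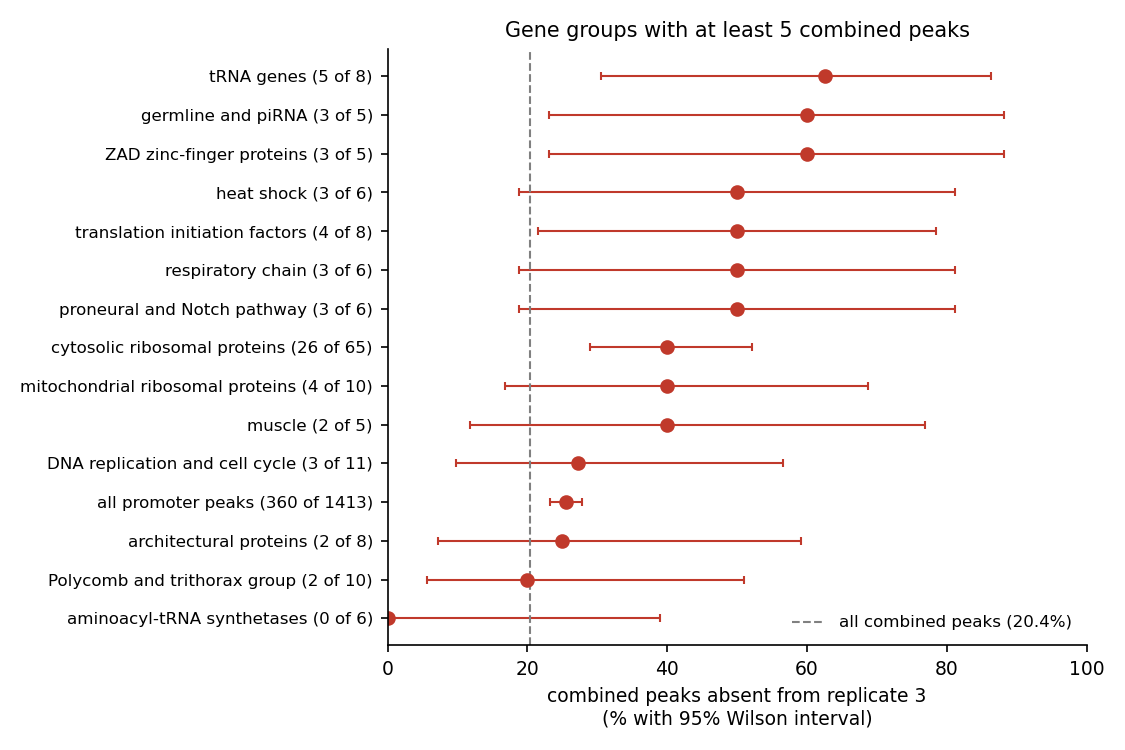
Share of combined peaks within 500 bp of a start site of each gene group that are members (x axis, %, with 95% Wilson intervals over peaks) for the groups with at least 5 combined peaks (y axis, counts in brackets) and for all promoter peaks. The dashed line is 20.4%; the interval of cytosolic ribosomal protein genes (29.0 to 52.1%) lies above it, as do those of the tRNA, ZAD zinc-finger, germline and initiation factor genes, each on 5 to 8 peaks, while the other small groups span it. Against the 25.5% of all promoter peaks, the intervals of the ribosomal protein and tRNA genes lie above and all other groups span it.

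AAAATA was the most frequent of the motifs searched in members. It was within 50 bp of the summit, on either strand, at 196 members (32.1%, 28.5 to 35.9) and 725 peaks in all 3 lists (31.6%, 29.8 to 33.6), against 19.8% in the members' flanks 500 bp away and 20.2% of the 23694 annotated start sites. For every motif, windows of start sites are centred on the start, while most promoter summits lay upstream of it. Shares at summits and at start sites thus cover different parts of a promoter. TATAAA, the TATA box, was at 98 members (16.1%, 13.4 to 19.2) and 481 peaks in all 3 lists (19.4 to 22.7%), against 10.8% in the members' flanks and 15.0% of start sites. At promoters alone TATAAA was at 15.8% of 360 members and 22.0% of 1018 peaks in all 3 lists.

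TATCGATA was at 14 members (2.30%, 1.37 to 3.82) and 23 peaks in all 3 lists (1.00%), against 0.328% and 0.349% in flanks and 3.75% of all start sites. All 14 were promoter members, 3.89% of the 360 (2.33 to 6.42), against 1.96% of 1018 promoter peaks in all 3 lists (1.28 to 3.02). These intervals overlap. None (0) of the 250 other members held it, which allows up to 1.20%. Its part CGATA was at 15.9% of members and 12.6% of peaks in all 3 lists, with 11.8% in the flanks of each, and at 21.4% of start sites. CTTTTC was at 12.3% of members (9.92 to 15.1) and 9.25% of peaks in all 3 lists (8.13 to 10.5). It was at 9.59% and 10.9% in their flanks and at 9.98% of start sites. A match is a string of letters, not a shown binding site, and start sites share these letters.

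Further motifs were counted in the same windows. CAGCTG, an E-box, was at 5.74% of members and 3.18% of peaks in all 3 lists, with 4.84% and 5.08% in flanks and 7.80% of start sites. CAGGTAG, the letters bound by the early activator Zelda, was at 9 members (1.48%, 0.778 to 2.78) and 10 peaks in all 3 lists (0.436%, 0.237 to 0.801), with 0.656% and 0.698% in flanks and 0.468% of start sites. The E-box CACGTG was at 1.15% of members, 1.09% of peaks in all 3 lists and 1.85% of start sites, and the promoter motif GGTCACAC at 0.656%, 0.611% and 3.88%. GAGAGA, bound by GAGA factor, was at 5.25% of members (3.74 to 7.31), 3.14% of peaks in all 3 lists (2.50 to 3.94) and 4.01% of start sites, but was more frequent in flanks, at 6.39% and 6.26%. The initiator core TCAGT was at 17.0% of members, 17.9% of peaks in all 3 lists and 30.1% of start sites. ACCCTACA, chosen after seeing the data as the 8-mer with the largest ratio of summits to flanks in peaks in all 3 lists, was at 2 members (0.328%, 0.0900 to 1.19) and 40 of those peaks (1.75%, 1.28 to 2.37), and at 0.127% of start sites. That choice favours the peaks in all 3 lists, so the lower member share is partly fixed by it. The 5 8-mers with the largest share difference from flanks, chosen in the same peaks, were at 3.11% to 5.41% of members and 4.54% to 5.67% of those peaks. Each was less frequent in members except AAAATATT.

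GC content in the 201 bp around the summit had a median of 37.3% in members (95% interval of the median 36.3 to 37.8) and 36.3% in peaks in all 3 lists (35.8 to 36.8), and these intervals overlap. The order turned in the 501 bp around the summit, at 39.3% in members (38.9 to 39.7) and 39.9% in peaks in all 3 lists (39.7 to 40.3), and among the stronger 50% of combined peaks, at 35.8% and 36.8%. Peak width was more uniform in members: 476 (78.0%) were 404 bp wide, the most common width, against 1239 peaks in all 3 lists (54.1%). Only 2 members (0.328%) were wider, both at Synd in the same replicate entries, against 164 peaks in all 3 lists (7.16%). The rule left out every peak that touched an entry of replicate 3, which a wider peak can do more easily. The small number of wide members is thus partly fixed by the rule. The part of width in the other differences was not tested.

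Members lay on every arm except Y, where no combined peak lay at all. They were 18.2% of combined peaks on 2L, 23.7% on 2R (20.4 to 27.5), 21.6% on 3L, 19.6% on 3R and 18.9% on X (15.9 to 22.3), and 3 of 10 on the fourth chromosome. The 1 Mb windows with the largest member share were 2R at 12 to 13 Mb, with 15 of 26 combined peaks (57.7%, 38.9 to 74.5), 3R at 4 to 5 Mb, with 9 of 18 (29.0 to 71.0%), and 2R at 13 to 14 Mb, with 14 of 29 (48.3%). These were the highest of 110 windows with at least 10 combined peaks. Both windows on 2R together had 29 of 55 (52.7%, 39.8 to 65.3), and the rest of 2R had 102 of 497 (20.5%). Replicate 3 listed 221 and 231 entries in these windows of 2R, against 330 and 284 in replicate 1 and 259 in each in replicate 2, beside a median of 260.5 over the windows in replicate 3, 261.5 in replicate 1 and 265 in replicate 2.

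Few members shared a site. In replicate 1, 38 members (6.23%) lay in an entry with another member, as did 40 (6.56%) in replicate 2, so their scores are not separate measurements. Members lay within 1000 bp of a peak in all 3 lists in 30 cases. Matching counts for the peaks in all 3 lists are not given, so these counts do not tell whether members stand more apart. In the dm3 lists the same rule found 610 of 2716 combined peaks (22.5%).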

How the data were processed

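ChIP-seq peak lists of 3 replicates of 1 group were used. Per the descriptions deposited beside the lists, each build (dm6, dm3) has a list per replicate, a list on pooled replicates and a list that passed IDR. The score per peak (column 7) was deposited by the authors without scaling between lists. The deposited −log10 q-value (column 9) reaches a ceiling at 2266 of 2988 combined peaks, so the score was used for ranks. The aligner, caller and thresholds: not given in the sources used here. A replicate list has 30000 entries of peaks and background.

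Overlaps of at least 1 bp, counts and medians were computed in Python 3.11.15 with pandas 2.3.3, numpy 2.4.6 and scipy 1.17.1, and plotted with matplotlib 3.10.9; the overlap step was tested on simulated lists and found every planted case. Sequences came from the RefSeq copy of the release 6 genome, the build of the dm6 lists, and start sites from Ensembl release 115 (BDGP6, 18277 genes after transposable elements were left out, 23694 start sites). Coordinates are 1-based. A peak was placed at a promoter first, then in an exon, intron or between genes. Shares have 95% Wilson intervals, a count of 0 allows 3 counts, and medians have order-statistic intervals.

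The members and lists were chosen with earlier results of these data known. The 21 gene lists were rebuilt from gene symbols, so they may differ from the earlier ones, and 2 symbols matched no gene. Apart from items not reported here, named are members within 5000 bp of CG10274, the 20 highest by combined score, the 10 highest at protein-coding starts, the 5 highest far from start sites, up to 4 per list, the 3 lowest, those next to the rule's limit and the 3 leading windows. Further ribosomal protein genes were named after their values were seen. No member passed 5 times the median in both replicates.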

Additional observations from a re-analysis of the deposited data

How the results depend on the processing

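The member count, promoter and X shares, GC, AAAATA and TATCGATA shares, relative scores and summit position were recomputed under other settings. Other shares, widths and distances were not. The 610 members became 201 among the stronger 50% of the combined peaks, and 613 to 2902 when 1 replicate at a time was not asked for, the highest without replicate 3, which removes the absence itself. Other overlaps gave 601 to 668. The promoter share of members was 63.7% among the stronger 50%, against 50.5% for peaks in all 3 lists, and 49.5% and 72.3% for start sites within 250 and 1000 bp, against 28.8% and 56.8%. Leaving out a replicate gave 47.5% to 59.6%, the lowest without replicate 3. Median GC was 35.6% in members and 34.7% in peaks in all 3 lists within 50 bp of the summit, but its order turned within 250 bp (39.3% and 39.9%) and among the stronger 50% (35.8% and 36.8%). Member scores over the median of as many top peaks of each replicate as there are combined peaks were 0.888 in replicate 1 and 0.788 in replicate 2, and as ratios of median ranks 0.741 and 0.595. The cause of these shifts was not tested beyond what each setting changes by construction.

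The X share moved by less than its interval in all 8 settings, as did the summit position without ribosomal protein genes. Chosen after seeing the data were the settings without ribosomal protein genes, by bin of score and without 2R at 12 to 14 Mb, where the promoter share was 58.9%. No paired analysis was possible because there is only 1 group. Depth is unknown, so weak binding in replicate 3 cannot be told apart from no binding.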

Other observations

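Beyond the gene lists, and chosen after their values were seen, members lay at these 5 genes. The share of members among combined peaks at like genes is not given, so the selection shows no trait of the members. Of all combined peaks at promoters, 25.5% were members. Rack1, a ribosome-bound scaffold gene, scored 183 in replicate 1 and 102 in replicate 2, and Nacalpha, a chaperone subunit for nascent chains, 155 and 96.3. Of the elongation factor genes, eEF1alpha1 was at 66.4 in replicate 1 and 132 in replicate 2, eEF2 at 104 and 41.3, and eEF5 at 93.9 and 81.9. At Rack1, Nacalpha, eEF2 and eEF5 the summit lay within 20 bp of the start.

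A further 3 genes were also chosen after their values were seen, and the same limit holds for them. InR, the insulin receptor gene, scored 114 in replicate 1 and 35.7 in replicate 2. Thor, which encodes the 4E-BP repressor of translation, scored 84.5 and 66.0, and spi, which encodes an Egfr ligand, 96.1 and 38.8.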
